A study of Mus musculus with 4 samples.

Results

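The genes examined were 10 that encode transcription factors of the B lineage: Pax5, Ebf1, Pou2af1, Pou2f2, Spib, Sfpi1, Bach2, Ikzf1, Ikzf3 and Tcf3. They were taken by name, not by any measured value, from the GENCODE vM1 annotation of the mm9 mouse genome, and all 10 were found among its 22367 protein-coding genes and among the 12186 that held enough reads to be compared. H3K4 chromatin immunoprecipitation sequencing (ChIP-seq) had been done on B cells from mouse spleen, left after cells bearing CD43 were removed with beads. The mice were 6 to 14 weeks old. The genotypes compared were PA1-KO (knockout of PA1) and PA1-WT (wild type), with 1 library of each. Per the labels, all cells were cultured for 2 days with LPS at 25 µg/ml and a further stimulus, which was either IL-4 at 5 ng/ml or a dextran-linked antibody against IgD at 2.5 ng/ml. The labels of these libraries do not say which of these stimuli applied, or whether the antibody recognised 1, 2 or 3 methyl groups on lysine 4 of histone H3. The knockout allele, any Cre driver, and the number of mice behind each library were not stated in the labels. The series also holds 2 samples labelled H3K4me4, which were not analysed here.

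PA1 belongs to a complex with PTIP and the H3K4 methyltransferases MLL3 and MLL4, enzymes known above all for marking enhancers. H3K4 methylation lies around active start sites in its trimethylated form and over enhancers in its monomethylated form. The factors encoded by these genes set up and hold the B cell state. E2A (from Tcf3) and EBF1 start the B cell programme, and PAX5 commits cells to it. PU.1 (from Sfpi1) and SPI-B are ETS family factors, OCT2 (from Pou2f2) and its coactivator OBF1 (from Pou2af1) act through octamer sites, Ikaros (from Ikzf1) and Aiolos (from Ikzf3) are zinc finger regulators, and BACH2 holds back plasma cell differentiation. Several of these genes are known for alternative promoters and for enhancers within their introns.

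The PA1-KO library held 5260401 mapped reads and the PA1-WT library 5539549. Of these, 24.48% and 21.39% lay outside enriched islands and promoter windows. The targeted gene, PA1 (2900092E17Rik in the annotation, TSS at chr7:134159998), had 114 PA1-KO and 261 PA1-WT reads within 1 kb of its transcription start site (TSS), a ratio of 0.498 (95% interval 0.396 to 0.624). The extent of the deletion is not stated, so this value is no full check of the labels. The B cell markers Cd79a, Cd79b, Ms4a1, Cd22 and Cr2 all carried signal, with 282 to 474 PA1-KO and 342 to 585 PA1-WT reads. Ptprc, which is not limited to B cells, had 514 and 428. The defining T cell markers Cd3e, Cd3g, Cd4 and Cd8a had 0 to 3 reads in either library, the 3 NK cell markers 0 to 4, and the myeloid markers Csf1r and Lyz2 0 to 3. Some markers of other cells did hold 50 or more reads over both libraries, namely 1 of 5 of T cells, 2 of 6 of myeloid cells and 2 of 3 of erythroid cells. Among them were Lck (145 and 176 reads in PA1-KO and PA1-WT), Cd14 (118 and 171), Klf1 (75 and 88) and Itgam (35 and 27), and below that number stood the myeloid markers Emr1 (9 and 25) and Ly6g (1 and 0). Their part in the results was not tested.

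For each gene, reads were counted within 1 kb of the annotated TSS that held most reads, called the main TSS here. All these windows have the same length. How much of each window 25-base reads can map to was not measured. No position and strand recurs within a file, so a strong window cannot count repeats. Levels of different genes are therefore compared only roughly. In the PA1-WT library the level, in reads per 1000000 after scaling (RPM), was 93.8 at Pax5, 91.7 at Pou2f2, 80.3 at Ikzf1, 78.9 at Pou2af1, 77.5 at Ikzf3, 70.2 at Sfpi1 and 69.9 at Ebf1. It was 44.7 at Tcf3, 43.0 at Spib and 35.2 at Bach2. The members' median level was 73.9 RPM in PA1-WT and 85.0 RPM in PA1-KO, against 42.2 and 42.6 RPM over all 12186 promoters. Neighbours in this order had overlapping 95% intervals, except Ebf1 (63.2 to 77.1 RPM) and Tcf3 (39.4 to 50.5 RPM). Between Ebf1 and Tcf3 the order broke into 7 stronger and 3 weaker promoters. In PA1-KO the strongest was again Pax5 (113 RPM) and the weakest was Spib (36.6 RPM), while Bach2 stood at 46.9 RPM.

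At the main TSS no member was called higher or lower, a call being a ratio of at least 1.5-fold in either direction with a 95% interval that excludes 1. Over all promoters 0.665% were called higher and 4.9% lower. With 1 library per genotype there was no replicate check and no test: each interval is a Clopper-Pearson interval on the split of reads between these libraries and covers counting error only. In bulk chromatin a lower signal per cell and fewer cells that carry it cannot be told apart. A ratio of 1 corresponds to 0.876 PA1-KO reads for each PA1-WT read.

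The genes of the factors that start the B cell programme or commit cells to it had main promoters a little above equality under the main scaling. At Pax5 (chr4, minus strand, TSS 44723280) 570 PA1-KO reads stood against 541 PA1-WT reads, a ratio of 1.20 (1.07 to 1.36). At Tcf3 (chr10, minus strand, TSS 79896366) the reads were 272 and 258, again a ratio of 1.20 (1.01 to 1.43). At Ebf1 (chr11, plus strand, TSS 44430819) they were 393 and 403, a ratio of 1.11 (0.966 to 1.28), whose interval spans 1. The ETS factor genes were the only members with ratios under 1. Sfpi1 (chr2, plus strand, TSS 90936937) had 329 and 405 reads, a ratio of 0.927 (0.799 to 1.07). Spib (chr7, minus strand, TSS 51787441) had 185 and 248, a ratio of 0.851 (0.700 to 1.03). Both intervals span 1 under this scaling, under scaling by the median of ratios, and with trends on GC content and read number removed. Scaled to total reads they did not: Sfpi1 stood at 0.856 (0.737 to 0.992) and Spib at 0.786 (0.646 to 0.954). Both also lay wholly below 1 when scaled to reads outside islands and promoter windows. The window mattered too. With 500 bp Spib stood above 1, at 1.086 (0.8403 to 1.403), and Sfpi1 at 0.888 (0.714 to 1.102). With 2 kb the Sfpi1 interval lay wholly below 1 and that of Spib spanned 1.

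The coactivator gene and its partner differed in size but not beyond their intervals. Pou2af1 (chr9, plus strand, TSS 51021795) had 474 PA1-KO and 455 PA1-WT reads, a ratio of 1.19 (1.04 to 1.36). Pou2f2 (chr7, minus strand, TSS 25917507) had 477 and 529, a ratio of 1.03 (0.907 to 1.17). The Ikaros family genes were alike: Ikzf1 (chr11, plus strand, TSS 11590335) had 497 and 463 reads, a ratio of 1.23 (1.08 to 1.39), and Ikzf3 (chr11, minus strand, TSS 98407114) 466 and 447, a ratio of 1.19 (1.04 to 1.36). Bach2 had the highest ratio. Its main TSS (chr4, plus strand, 32334739), which belongs to a transcript annotated as processed rather than coding, had 237 and 203 reads, a ratio of 1.33 (1.10 to 1.62).

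**Figure D1:**
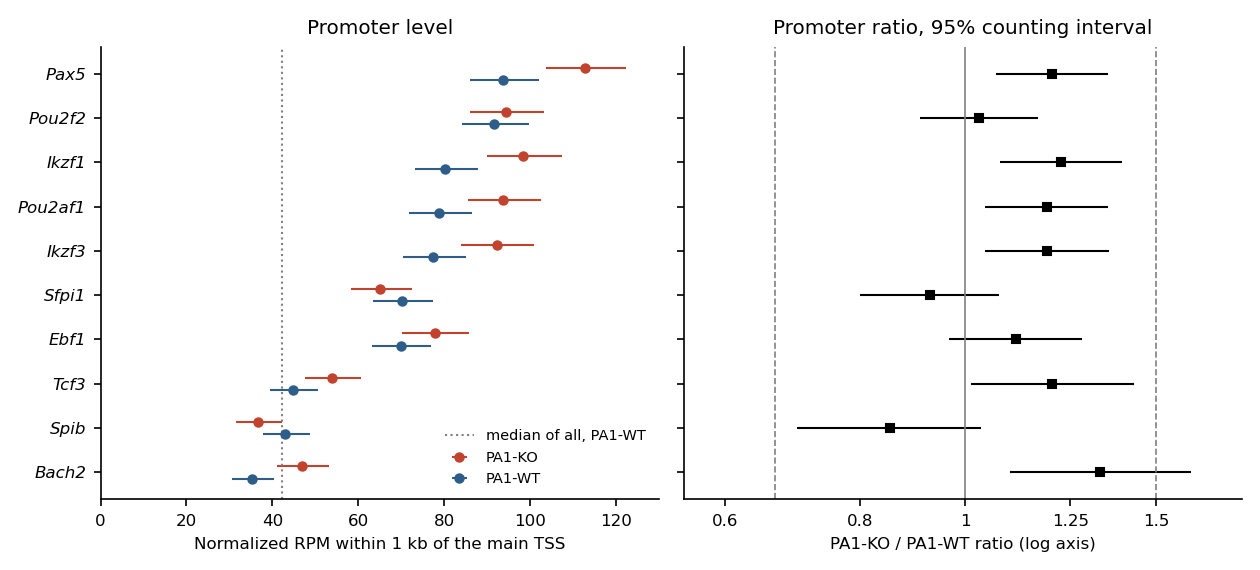
Left, level within 1 kb of the main TSS in RPM for each gene and library, with 95% counting intervals and the PA1-WT median of all promoters (42.2 RPM) as a dotted line. Right, PA1-KO to PA1-WT ratio on a log axis with its 95% counting interval, dashed lines at 1.5-fold in either direction. A reader should see 8 ratios above 1, between 1.03 and 1.33, and those of Sfpi1 and Spib below 1, none past a dashed line.

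Counted together, 8 of the 10 ratios were above 1 and 6 intervals lay wholly above 1, those of Pax5, Pou2af1, Bach2, Ikzf1, Ikzf3 and Tcf3. No interval lay wholly below 1. Over all promoters 10.1% had an interval above 1 and 11.4% below. The members' median ratio was 1.19, and that of all promoters 1.001. Promoters with as many reads as the members (433 to 1111 in both libraries, 6596 genes) had a median ratio of 1.04, with 64.8% of ratios and 14.7% of intervals above 1 and 4.41% of intervals below.

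The direction at the main TSS depended on settings. With background scaling, which sets equal the reads that fall in neither islands nor promoter windows, the median log2 ratio of the members was -0.060 where TMM scaling gave 0.25, and 1 member, Bach2, kept a ratio above 1. A scale factor shifts every promoter alike, and the median of all promoters went from 0.00 to -0.31 (log2) with it. With smooth trends on GC content and read number removed, the members' median was 0.0087 and 6 of 10 ratios were above 1. The count of intervals moved as well, from 6 above 1 and 0 below to 1 above (Bach2) and 2 below (Spib and Sfpi1) under total-read scaling. It was 0 above and 3 below (with Pou2f2) under background scaling, and 1 above (Tcf3) and 0 below with the trends removed.

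**Figure D2:**
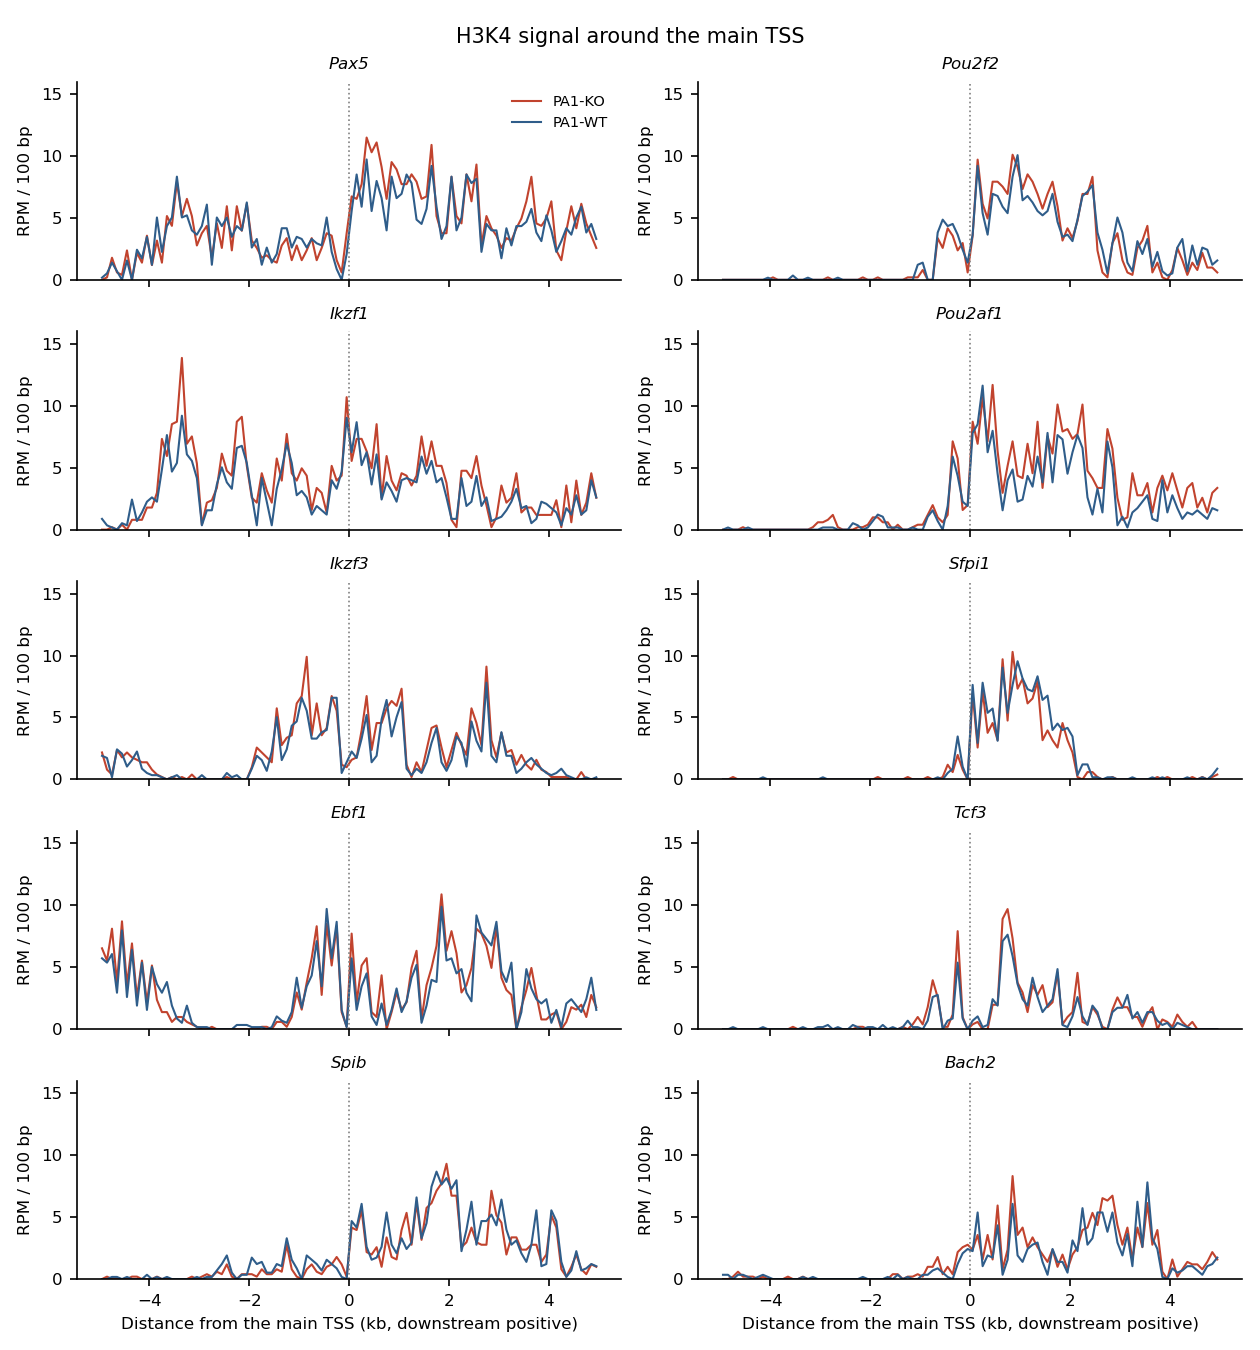
H3K4 signal in 100 bp steps from 5 kb before to 5 kb after the main TSS of each gene, in RPM per step, PA1-KO in red and PA1-WT in blue, with distance downstream positive. The curves of both libraries share their peaks, Sfpi1 and Pou2f2 hold almost no signal more than 1 kb upstream, and Ikzf1, Pax5 and Ebf1 hold further peaks on both sides.

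Most promoters were lopsided towards the gene. In PA1-WT 91.4% of the reads in the Sfpi1 window (95% interval 88.2 to 93.9) lay downstream of the TSS, and in PA1-KO 92.4% (89.0 to 95.02). At Pax5 the downstream share was 73.2% (69.3 to 76.9) in PA1-WT and 78.0% (74.4 to 81.4) in PA1-KO, and at Pou2f2 71.2% (67.1 to 75.04) and 78.4% (74.4 to 82.0). Their intervals overlap. Ebf1 went the other way, with 34.2% (29.6 to 39.1) and 41.1% (36.2 to 46.1) downstream. Ikzf3 was near even, at 46.1% in PA1-WT and 47.3% in PA1-KO. The Tcf3 TSS itself was nearly empty: the 200 bp around it held 2 PA1-KO and 4 PA1-WT reads, while the 100 bp step from 700 to 800 bp downstream held 49 and 44.

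The promoter islands of these genes were longer than most. An island is a stretch of 200 bp windows enriched in reads, joined across gaps of up to 200 bp. On both libraries combined, the island at the main TSS measured 16800 bp at Pax5, 12000 bp at Ikzf1, 8400 bp at Spib, 7400 bp at Ebf1 and 6600 bp at Pou2af1. It measured 6400 bp at both Pou2f2 and Ikzf3, 6000 bp at Bach2, 5600 bp at Tcf3 and 3000 bp at Sfpi1. The median of the members was 6500 bp and that of all promoters 2000 bp, with a range of 0 to 17200 bp. Only 23.7% of all promoter islands were at least as long as the shortest member's, that of Sfpi1. Long islands were not particular to these genes: the median was 5400 bp both over 29 other B lineage factors, where Irf8 reached 13400 bp, and over 17 genes known to be bound or activated by the members, where Cd79a reached 11800 bp. It was 1400 bp over 9 factors of other lineages. The Spib island also holds the TSS of Pold1, that of Ikzf1 the TSS of Gm12000 and that of Bach2 the TSS of Gm11932, so part of those lengths may belong to neighbours. The islands of Pax5, Ikzf1, Ebf1 and Tcf3 each also span a second annotated start of the same gene, over 2 kb from the main TSS. Their lengths are thus not the width of a peak at the main TSS alone.

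At equal read depth, 8 member islands were shorter in PA1-KO than in PA1-WT, 2 were equal (Ebf1 at 7000 bp and Pou2af1 at 6400 bp) and none was longer. Over all promoters 37% were shorter and 27.0% longer in PA1-KO. Among the 2891 promoters with islands of at least 3000 bp, as in the members, 38.5% were shorter and 36.7% longer. Pax5 had the widest gap, 11400 bp in PA1-KO against 16400 bp in PA1-WT. This gap rested on the thinning: under another random draw of PA1-WT reads its island broke into a stretch of 11000 bp. With that draw 7 member islands were shorter and 1 was longer in PA1-KO. Smaller gaps were 6000 against 7800 bp at Spib, 3400 against 4600 bp at Tcf3, 4800 against 5800 bp at Bach2, 5600 against 6400 bp at Pou2f2, 5800 against 6400 bp at Ikzf3, 2600 against 3000 bp at Sfpi1 and 11800 against 12000 bp at Ikzf1, the last being a single window. When PA1-WT was thinned further, to match the number of PA1-KO reads in promoters, 6 were shorter and 2 longer, with 32.1% and 31.7% over all promoters. The larger share of PA1-KO reads outside islands, given above, was not tested for its part in this count.

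**Figure D3:**
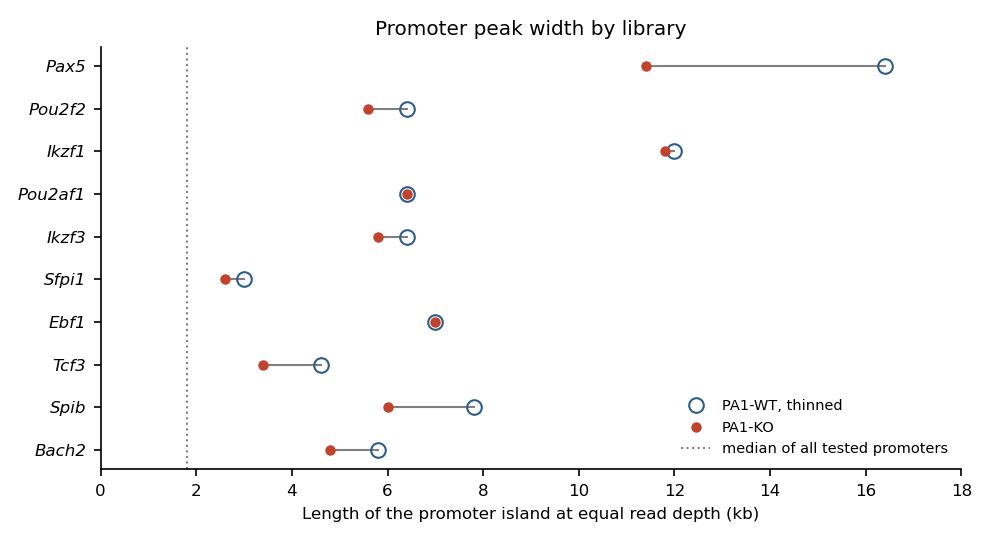
Length of the promoter island in kb, called in each library after the PA1-WT library was thinned to the PA1-KO read number, PA1-WT as open circles and PA1-KO as filled ones, with the median of all promoters (1800 bp) as a dotted line. Pax5 shows the widest gap, from 16400 bp to 11400 bp, and Ebf1 and Pou2af1 show none.

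Start sites of the same gene could differ. A second annotated TSS, over 2 kb from the main one and with at least 50 reads, could be compared in 8 members. Bach2 was called lower there and no member was called higher. Over all genes with such a second TSS 4.86% were called higher and 8.93% lower.

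At Bach2 the lower window was the 5′ end of the gene, where 3 TSSs lie close together. At the TSS 32326052, at -8687 bp from the main one, 93 PA1-KO reads stood against 167 PA1-WT reads, a ratio of 0.636 (0.488 to 0.824). At the first TSS of the gene, 32325779, whose window shares most of those reads, they were 70 and 118, a ratio of 0.677 (0.496 to 0.918). The main TSS stood at 1.33, so the start regions of the gene lay on opposite sides of 1, and they did so under background scaling too (0.512 and 1.07). The odds ratio between second and main window, which needs no scaling of the libraries, was 0.478 (0.343 to 0.662). Over all genes 13% of such odds ratios had an interval below 1 and 8.4% above. The call at 32326052 also held under total-read scaling (0.586), which lowers every ratio and so could not remove it. Both start regions are shown because their ratios lay on opposite sides of 1. The lines below give the 250 bases before each TSS (mm9, plus strand), with CpG dinucleotides in capitals.
Bach2 first TSS, chr4:32325529-32325778: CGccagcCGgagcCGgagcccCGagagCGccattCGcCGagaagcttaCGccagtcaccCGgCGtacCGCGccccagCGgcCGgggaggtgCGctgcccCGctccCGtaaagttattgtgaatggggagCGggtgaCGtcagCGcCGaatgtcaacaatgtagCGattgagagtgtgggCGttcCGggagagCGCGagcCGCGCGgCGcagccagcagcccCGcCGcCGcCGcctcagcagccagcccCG
Bach2 main TSS, chr4:32334489-32334738: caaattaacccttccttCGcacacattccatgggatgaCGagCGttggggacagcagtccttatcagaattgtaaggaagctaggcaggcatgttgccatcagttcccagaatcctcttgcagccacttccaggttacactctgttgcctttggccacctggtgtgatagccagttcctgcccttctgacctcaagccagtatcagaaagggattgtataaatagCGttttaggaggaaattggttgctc
The upstream region of the first TSS holds 35 CpG dinucleotides, and that of the main TSS 4, among which a TATAAA starts at -34 and a GAGGAA at -17 from the start site.

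Pax5 showed the same order with a smaller difference. At the TSS 44716285, 6995 bp downstream of the main TSS, 293 PA1-KO reads stood against 441 PA1-WT reads, a ratio of 0.758 (0.652 to 0.881), and the odds ratio against the main TSS was 0.631 (0.520 to 0.765). At the overlapping TSS 44716878 the reads were 181 and 299, a ratio of 0.691 (0.571 to 0.834). The 1 kb bin that holds this TSS (chr4:44716319-44717318) had 63 and 128 reads, a ratio of 0.562 (0.409 to 0.765). At the first TSS of the gene, 44724318, the reads were 241 and 305, a ratio of 0.902 (0.758 to 1.07). The first and the lower of these starts are printed, as 250 bases before the TSS on the minus strand (mm9), with CpG dinucleotides in capitals. The main TSS is left out because annotated exons of other Pax5 transcripts cover the region before it.
Pax5 first TSS, chr4:44724319-44724568: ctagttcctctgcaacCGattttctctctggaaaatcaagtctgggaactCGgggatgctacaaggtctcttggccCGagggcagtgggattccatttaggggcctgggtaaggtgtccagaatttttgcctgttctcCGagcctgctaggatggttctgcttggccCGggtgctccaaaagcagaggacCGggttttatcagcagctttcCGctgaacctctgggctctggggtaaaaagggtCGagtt
Pax5 TSS 44716878, chr4:44716879-44717128: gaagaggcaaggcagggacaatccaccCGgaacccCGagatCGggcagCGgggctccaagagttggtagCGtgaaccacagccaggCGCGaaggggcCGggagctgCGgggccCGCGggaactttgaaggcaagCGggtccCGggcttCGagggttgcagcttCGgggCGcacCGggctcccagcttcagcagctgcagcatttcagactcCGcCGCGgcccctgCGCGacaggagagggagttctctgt
The region with the lower ratio holds 22 CpG dinucleotides and that of the first TSS 8. The TSS 44723557, whose window overlaps that of the main TSS, has 18 there and a ratio of 1.13 (0.998 to 1.29). Within 5 Mb of Pax5, 16 single-base differences from the reference were seen in PA1-KO reads alone and 0 in PA1-WT reads alone. Their part in the Pax5 ratios was not tested.

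Whether CpG content bears on the ratios of start sites was not tested. At Ikzf1 the TSS 11586448, with 22 CpG dinucleotides in the 250 bases before it, had 375 PA1-KO and 351 PA1-WT reads, a ratio of 1.22 (1.05 to 1.41), close to the 1.23 of the main TSS, which has 2 CpG dinucleotides there. The first TSS of Ikzf1, 11585006, with 4 CpG dinucleotides, had 64 and 103 reads, a ratio of 0.709 (0.511 to 0.978). At Ebf1 the TSS 44435263 had 179 and 241 reads, a ratio of 0.848 (0.695 to 1.03), and its odds ratio against the main TSS was 0.762 (0.596 to 0.973). Ikzf3 had its second start at 98338717, 68397 bp downstream of the main TSS, with 361 and 304 reads, a ratio of 1.36 (1.16 to 1.58). Pou2f2 (TSS 25905877, 186 and 241 reads, ratio 0.881), Sfpi1 (90922565, 41 and 59, 0.793) and Tcf3 (79893757, 148 and 160, 1.06) had second starts whose intervals span 1. Taken at the most 5′ TSS of each gene in place of the main one, 5 of 10 ratios were above 1 and the median log2 ratio was -0.043.

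**Figure D4:**
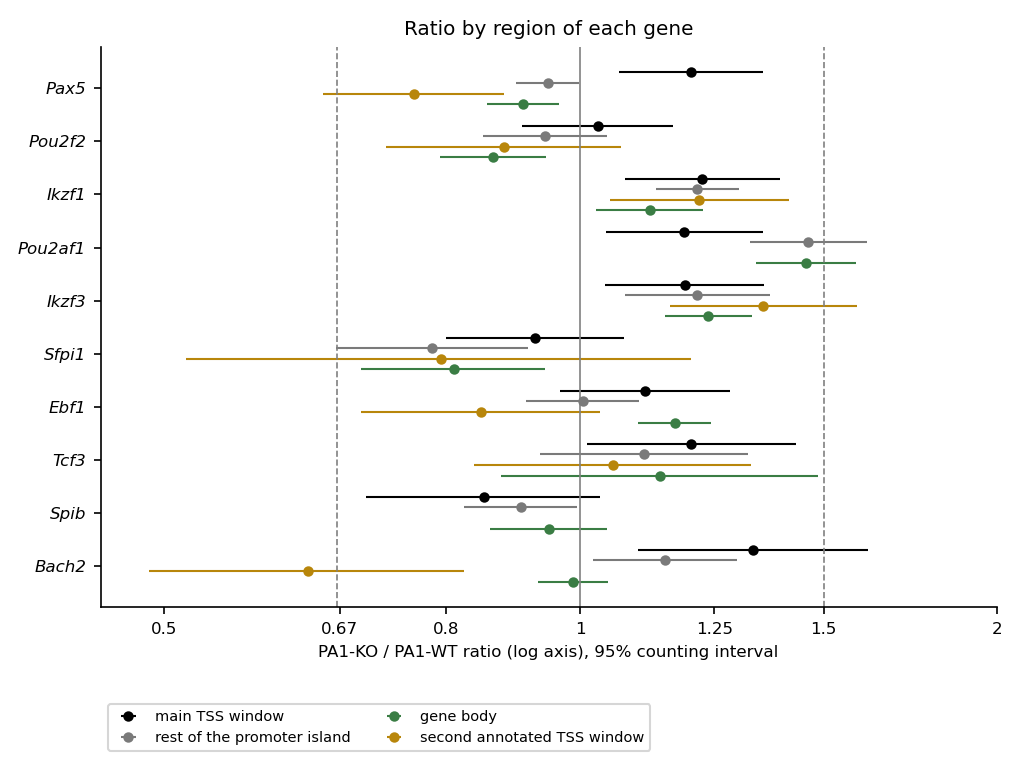
PA1-KO to PA1-WT ratio on a log axis with 95% counting intervals for 4 regions of each gene: main TSS window, rest of the promoter island, second annotated TSS window and gene body, with dashed lines at 1.5-fold in either direction. The second TSS window of Bach2 lies at 0.636 and that of Pax5 at 0.758, each left of its main window. The gene body of Pou2af1 lies at 1.46. The rest of the island can share reads with the gene body and with a second TSS window, so these regions are not independent.

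Away from the central 2 kb, the rest of each promoter island was called neither higher nor lower in any member, against 11.1% higher and 2.38% lower over the 5712 islands that could be compared. At Pax5 this flank, which includes the second start 44716285, had 2523 PA1-KO and 3041 PA1-WT reads, a ratio of 0.947 (0.898 to 0.999). That was below the 1.20 of its centre, with an odds ratio of 0.787 (0.691 to 0.898). Pou2af1 went the other way: its flank had 948 and 740 reads, a ratio of 1.46 (1.33 to 1.61), and an odds ratio against the centre of 1.23 (1.04 to 1.45). The flank ratio was below the centre ratio in 7 of 10 members and in 32.1% of all islands compared. With a centre of 500 bp on either side it was below in 4 of 10.

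Most main TSSs of these genes had few CpG dinucleotides before them. The 250 bases before the main TSS held a median of 5.5 CpG dinucleotides, between 2 (Spib and Ikzf1) and 34 (Ikzf3), against a median of 18 over all promoters, and 8 of 10 members lay below that median. This depends on the choice of the TSS with most reads. The first TSS of Bach2 has 35 against 4 at its main TSS, while the Ikzf3 start 98338717 has 2 against 34. Annotated exons overlap the 250 bases at Pax5, Tcf3, Sfpi1, Ikzf1 and Ikzf3. Words known as cores of factor binding sites were searched on both strands from 250 bases before to 50 after the main TSS. The PU.1 core GAGGAA occurred in 7 of 10 members and in 26.3% of all promoters. The 3 without it were Ebf1, Spib and Tcf3. The Ikaros core TGGGAA occurred in 3 of 10 against 20.7%, the E-boxes CAGGTG in 2 against 17.9% and CAGCTG in 1 against 14.9%, and the GC box GGGCGG in 5 against 67.7%. The octamer ATGCAAAT, the EBF site (TCCC and GGGA parted by 2 bases) and the AP-1 word TGAGTCA occurred in none, with 1.39%, 1.20% and 2.77% over all promoters. GAGGAA and TGGGAA can each fall within longer purine-rich runs. A word in the sequence is no evidence of binding.

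Gene bodies covered a wider range of ratios than the main promoters. Reads were summed from 1 kb past the main TSS to the 3′ end, leaving out 1 kb around each annotated TSS. Pou2af1 had the highest gene body ratio, 1.46 (1.34 to 1.58), with 1280 PA1-KO and 1003 PA1-WT reads. It was followed by Ikzf3 at 1.24 (1.15 to 1.33, 1540 and 1420 reads), Ebf1 at 1.17 (1.10 to 1.24, 2165 and 2112), Tcf3 at 1.14 (0.877 to 1.49, 118 and 118) and Ikzf1 at 1.12 (1.03 to 1.23, 998 and 1015). Bach2 stood at 0.988 (0.932 to 1.05, 2177 and 2515) and Spib at 0.949 (0.860 to 1.05, 754 and 907). Pax5 was at 0.909 (0.856 to 0.965, 1944 and 2441), Pou2f2 at 0.865 (0.791 to 0.945, 873 and 1152) and Sfpi1 at 0.810 (0.695 to 0.944, 291 and 410). None was called under TMM scaling, against 10.5% higher and 2.85% lower over 7361 gene bodies. The members' median was 1.05 and that of all gene bodies 1.14. Under background scaling, which lowers every ratio, Sfpi1 was called lower, at 0.653 (0.560 to 0.761). The share over all gene bodies under that scaling is not given here.

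The 10 genes span 1214 bins of 1 kb, of which 215 were enriched and 203 held the 20 reads needed for a comparison. Of these 17 were called higher and 11 lower, where bins over all coding genes gave 6.27% and 5.61%. By gene, Ebf1 had 6 higher, Ikzf3 4, Pou2af1 3 and Tcf3 1, with 0 lower, while Pax5 had 4 lower, Pou2f2 3 and Ikzf1 1, with 0 higher. Bach2 had 3 of each, and Spib and Sfpi1 had none. Neighbouring bins share a peak and are not independent.

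**Figure D5:**
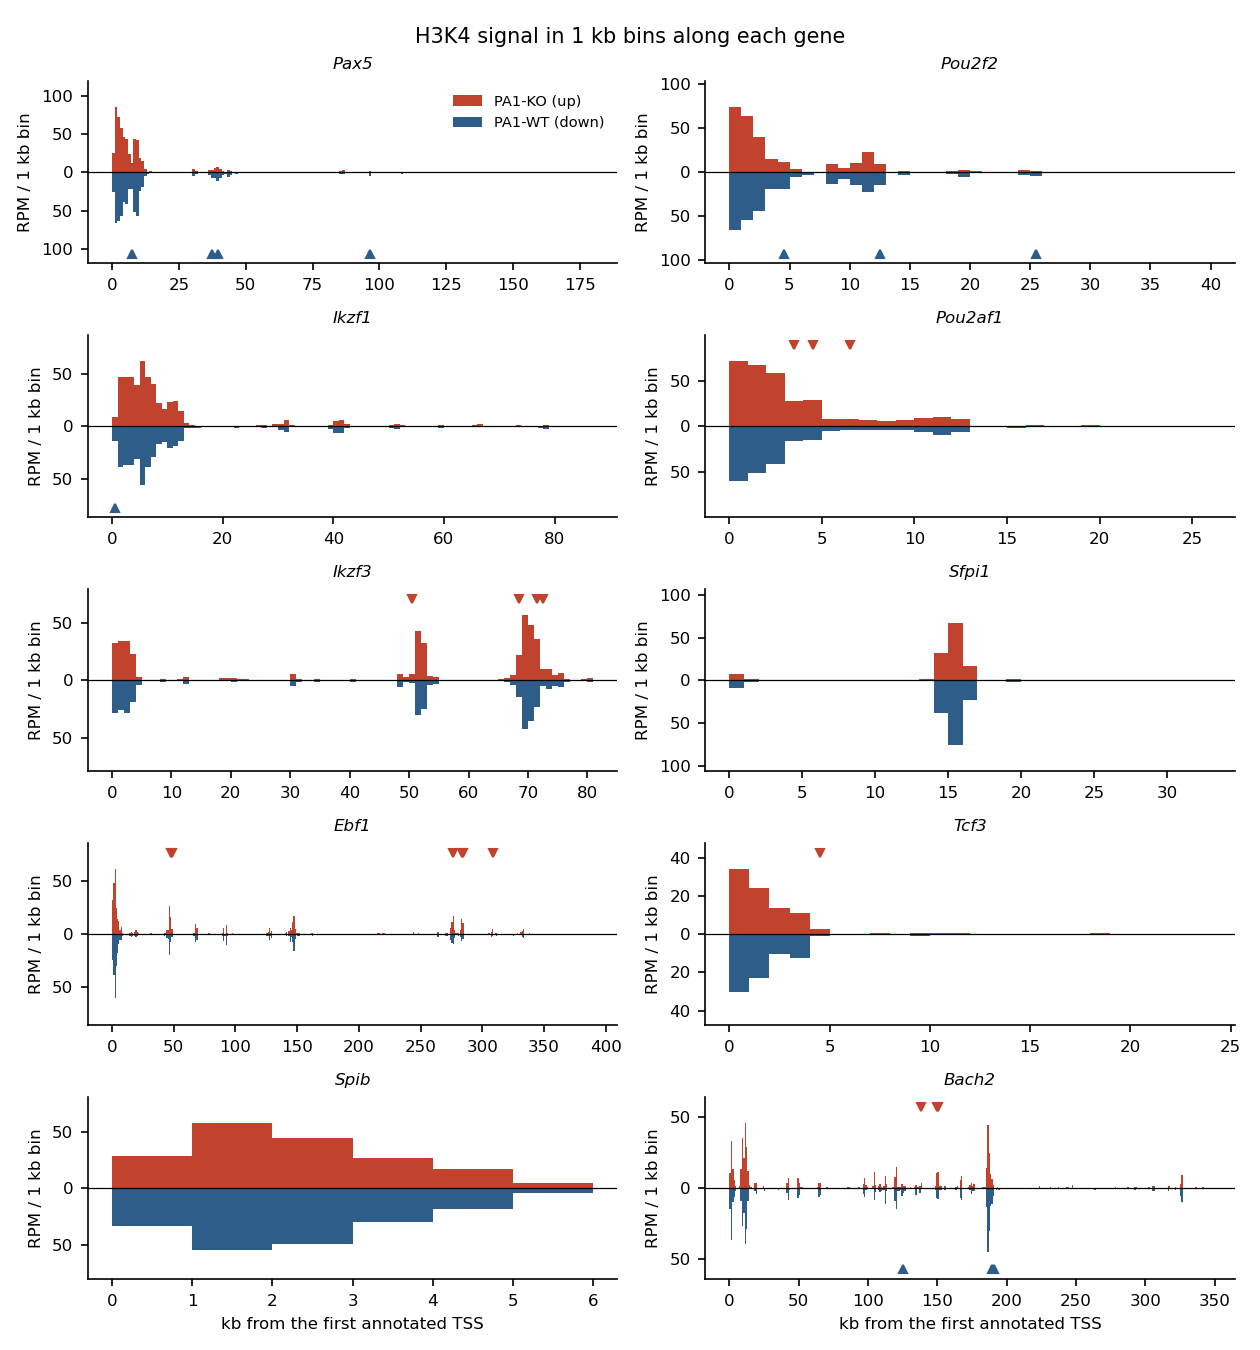
H3K4 signal in RPM per 1 kb bin from the first annotated TSS of each gene to its 3′ end, PA1-KO drawn upwards and PA1-WT downwards, each panel on its own scale. Triangles mark called bins, red at the top for higher and blue at the bottom for lower in PA1-KO, 17 and 11 in all. Signal lies in separate peaks within Ebf1 and Bach2, in one broad block at Pou2af1, and near the 3′ end of Ikzf3.

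Enriched bins away from any annotated TSS joined into 70 runs, of which 5 were called higher and 6 lower. Runs over all coding genes were called higher in 7.75% and lower in 5.52%. All called runs lay in introns. In Ebf1 the run chr11:44477819-44479818 in intron 6 had 107 PA1-KO and 57 PA1-WT reads, a ratio of 2.14 (1.54 to 3.01). The run chr11:44712819-44715818 in intron 8 had 148 and 80, a ratio of 2.11 (1.60 to 2.81). These were the only runs called higher under all 3 scalings, with ratios of 1.73 and 1.70 under background scaling. Between them, the run chr11:44573819-44579818 in intron 6 had 242 and 226 reads, a ratio of 1.22 (1.02 to 1.47). The Ebf1 run with most reads, chr11:44432819-44433818 in intron 1, had 310 and 346, a ratio of 1.02 (0.874 to 1.20). Within this gene 2 of 17 runs were called, both far from the promoter, and the strongest run, next to the promoter, was even.

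In Pou2af1, 11 bins of intron 1 formed a single run (chr9:51023795-51034794) with 901 PA1-KO and 670 PA1-WT reads, a ratio of 1.53 (1.39 to 1.70). These reads are also counted in the gene body of Pou2af1, and some of them in the flank of its promoter island. The run is called under TMM scaling and not under total-read scaling (1.42) or background scaling (1.24). The remaining higher runs were thinner. In Bach2 the run chr4:32474779-32476778 in intron 2 had 114 and 82 reads, a ratio of 1.59 (1.18 to 2.13). In Tcf3 a single bin of intron 2 (chr10:79891393-79892392) had 15 and 6, a ratio of 2.85 (1.05 to 8.98). Neither is called under the other 2 scalings.

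The lower runs lay in Pax5, Pou2f2 and Bach2, and all 6 were called under each of the 3 scalings. Total-read and background scaling lower every ratio, so a lower call could not be lost under them. In Pax5 the run chr4:44682319-44688318 in intron 5 had 129 PA1-KO and 221 PA1-WT reads, a ratio of 0.666 (0.532 to 0.832). Its neighbour chr4:44679319-44681318, in the same intron, had 25 and 51, a ratio of 0.559 (0.332 to 0.920). The bin chr4:44627319-44628318 in intron 6 had 9 and 25, a ratio of 0.411 (0.169 to 0.910). In contrast the Pax5 run with most reads, chr4:44718319-44721318 in intron 1, had 743 and 794, a ratio of 1.07 (0.965 to 1.18). In Pou2f2 the runs chr7:25897508-25899507 and chr7:25891508-25893507, both in intron 5, had 22 against 46 and 21 against 44 reads, with ratios of 0.546 (0.313 to 0.926) and 0.545 (0.308 to 0.936). The strongest Pou2f2 run, chr7:25911508-25915507 in intron 1, had 357 and 499, a ratio of 0.817 (0.711 to 0.937). In Bach2 the run chr4:32449779-32452778 in intron 2 had 31 and 65, a ratio of 0.544 (0.343 to 0.847), so intron 2 of this gene holds runs called in both directions.

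Ikzf1, Ikzf3, Spib and Sfpi1 had no called run. The run with most reads in Ikzf3, chr11:98352346-98359345 in intron 3, had 485 PA1-KO and 417 PA1-WT reads, a ratio of 1.33 (1.16 to 1.52). That of Ikzf1, chr11:11592006-11595005 in intron 1, had 398 and 353, a ratio of 1.29 (1.11 to 1.49). The strongest run of Bach2, which was not called either, chr4:32510779-32516778 in intron 3, had 522 and 677, a ratio of 0.880 (0.784 to 0.988). The ETS factor genes had a single run each, with 465 and 591 reads at Spib (ratio 0.898, 0.794 to 1.02) and 86 and 130 at Sfpi1 (ratio 0.755, 0.568 to 0.999).

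The 200 bases with most reads in the Ebf1 intron 8 run and in the first Pax5 intron 5 run are printed, since these are the strongest called runs that kept their call in each direction (mm9, plus strand). Capitals mark the words searched above.
Ebf1 intron 8, chr11:44714599-44714798: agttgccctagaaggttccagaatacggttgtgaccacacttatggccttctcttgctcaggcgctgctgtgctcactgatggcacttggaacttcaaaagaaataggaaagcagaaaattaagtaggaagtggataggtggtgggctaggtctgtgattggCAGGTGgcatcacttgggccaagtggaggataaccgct
Pax5 intron 5, chr4:44684289-44684488: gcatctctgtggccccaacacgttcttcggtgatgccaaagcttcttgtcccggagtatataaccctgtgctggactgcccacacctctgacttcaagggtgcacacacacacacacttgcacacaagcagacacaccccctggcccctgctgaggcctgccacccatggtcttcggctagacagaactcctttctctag
The Ebf1 stretch held 30 PA1-KO and 15 PA1-WT reads and 1 E-box, CAGGTG. The Pax5 stretch, which lies on the other strand from the gene as printed, held 14 and 21 reads and none of the words. Over the 200-base summits of all 70 member runs, GAGGAA occurred in 18.6% against 23.8% of 8826 summits in all coding genes, CAGGTG in 20% against 15.6% and TGGGAA in 24.3% against 17.7%.

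Other genes of the pathway were taken from lists chosen with earlier results of these data known. Of 29 further B lineage factors and partners, 1 promoter was called higher and 2 lower, with a median ratio of 1.01. The higher one was Pou2f1, which encodes OCT1, the relative of OCT2, with 258 PA1-KO and 189 PA1-WT reads, a ratio of 1.56 (1.29 to 1.89). Klf2, a regulator of B cell homing, had 70 and 123, a ratio of 0.650 (0.477 to 0.878), and Ebf4, an EBF1 relative, 28 and 54, a ratio of 0.592 (0.361 to 0.951). The next highest was Ikzf2, which encodes Helios, at 1.49 (1.01 to 2.21). Among 17 comparable genes of 20 known to be bound or activated by the members, none was called. Their ratios ran from 0.779 at Fcer2a, which encodes CD23, and 0.919 at Cd72 to 1.26 at Vpreb3 and 1.34 at Fcrla, with a median of 1.11. Of 18 factors of other lineages 9 had enough reads, and 2 were called lower, against the same 4.9% over all promoters. They were Cebpb (29 and 65 reads, ratio 0.509, 0.317 to 0.8003) and Nfe2 (34 and 63, ratio 0.616, 0.393 to 0.949). Both hold few reads, and the share called at such read numbers is not given here. The highest of that list were Gata3 at 1.01 and Klf1 at 0.973.

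The libraries also differed in sequence near some members. Positions were counted where at least 3 reads of 1 library covered a base, 50% or more of them differed from the reference, and at least 3 reads of the other library did not. Within 5 Mb there were 8 such positions in PA1-KO alone and 0 in PA1-WT alone near Pou2f2, and 6 and 1 near Spib. Both lie on chromosome 7, which also carries PA1 (63 and 4 in all). This excess was not particular to chromosome 7, as chromosome 19 had 70 and 6 and chromosome 1 had 55 and 3. Chromosomes 2 (10 and 82) and 6 (4 and 73) went the other way. Near Ikzf3 there were 2 in PA1-KO and 22 in PA1-WT, near Tcf3 2 and 11, near Pou2af1 0 and 4 and near Sfpi1 0 and 2. Near Ebf1 and Bach2 there was 1 each in PA1-KO and near Ikzf1 none. Whether these differences in sequence bear on the ratios was not tested.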

How the data were processed

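Each line of the deposited files is 1 mapped read of 25 bases, with position, strand, a match descriptor and a score column that the authors left at 0 throughout; no position and strand recurs within a file. Per the submitters' processing notes the authors used mm9 and SICER; no aligner was named in the sources used here. Positions were read as 1-based, since the mismatch letters of chromosome 19 equalled the reference base in 100% of cases that way. Read 5′ ends were moved 75 bp, counted within 1 kb of the GENCODE vM1 TSS with most reads and scaled with TMM (trimmed means, cutting 30% on ratio and 5% on level) over 12186 genes with 50 or more reads. Islands used 200 bp windows (Poisson probability under 1e-05, effective genome 80%, at least 20 reads, or 10 in a single library). Ratios carry exact conditional binomial (Clopper-Pearson) 95% intervals and odds ratios exact conditional ones. Without molecular identifiers, PCR copies cannot be told from separate molecules, so intervals cover counting error only. The depth, 5260401 (PA1-KO) and 5539549 (PA1-WT) reads, leaves weak sites imprecise. Named were all 10 members, PA1, called genes and the 2 highest and 2 lowest of each other list, called runs and each member's strongest run. The members and lists were chosen with earlier results of these data known. Some marker genes are not reported here. Scaling and intervals were tested on promoter counts drawn from a Poisson model, on which the intervals also rest. The counting of reads was not simulated. Python 3.11.15, numpy 2.4.6, scipy 1.17.1 and statsmodels 0.14.6 were used. The alternatives tried changed scaling, window, fragment shift, read minimum, TSS choice, trends, depth, island rules and bin size.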

Additional observations from a re-analysis of the deposited data

How the results depend on the processing

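No member was called at its main TSS under any of the 11 alternatives tried. Over all promoters the share called lower ran from 1.12% with trends removed to 16.8% under background scaling. The share called higher ran from 0.14% under background scaling to 1.21% with a window of 500 bp. Of 110 single promoter ratios of the members, 96 kept their side of 1, while 14 crossed it. Background scaling, to reads in neither islands nor promoters, took the members' median promoter log2 ratio from 0.25 to -0.060 and the median gene body log2 ratio from 0.07 to -0.24. The most 5′ TSS gave -0.043 and removal of GC and read-number trends 0.0087 for the promoter median. The median island length of 6500 bp became 7500 bp with a window probability under 0.001, 7800 bp with gaps of up to 600 bp, 5900 bp with no gap and 6800 bp with no fragment shift. Higher bins went from 17 to 11 under total-read scaling, 7 under background scaling and 11 with bins of 2 kb, and lower bins from 11 to 18, 35 and, with a minimum of 50 reads, 7. Among alternatives chosen after the data were seen, background scaling gave 2 runs higher and 12 lower and 3 second start windows lower, total-read scaling gave 2 runs higher and 9 lower, and a centre of 500 bp gave 4 flanks below their centre. Apart from alternatives with fewer reads or features by construction, the cause was not tested. No paired analysis was possible because each genotype had 1 library, and for the same reason no library could be left out. Total-read and background scaling lower every ratio, in members and other genes alike. For bins, runs and second starts, the shares over all genes under the alternatives are not given here. Bins near 20 reads limit what a ratio can show.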

Other observations

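Many annotated start sites of these genes carried almost no H3K4 signal in either library. The Pax5 start 44696687 had 4 PA1-KO and 3 PA1-WT reads within 1 kb, the Ebf1 start 44725640 had 2 and 1, and the Pou2f2 start 25882800 had 3 and 1. In Bach2 the coding start 32504410 had 1 and 1, while 32588480 had 1 and 6 and 32661906 had 6 and 8. The Ikzf3 start 98350334 had 2 and 6 and the Tcf3 start 79884605 had 4 and 1.

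Within Bach2 the 1 kb bin chr4:32463779-32464778 held 20 PA1-KO and 4 PA1-WT reads, a ratio of 5.71 (1.91 to 23.0), the highest of the called member bins, while the whole 2-bin run around it held 26 and 22 reads, a ratio of 1.349 (0.735 to 2.50). This bin was singled out after its value was seen.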
